A study of Mus musculus with 9 samples.

Results

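The genes described here encode 8 ectoenzymes, which are enzymes anchored in the plasma membrane with the active site facing outward. They are Ace, Dpp4, Anpep, Entpd1, Nt5e, Cd38, Vnn3 and Enpp1, taken as the rows of the gene count table whose Ensembl ID carries one of these symbols. All 8 were found among the 46517 genes of the table, and all 8 had enough counts to be among the 14059 genes tested. The libraries were made from primary wild-type C57BL/6 mouse monocytes grown in vitro, with 3 libraries each, numbered 0, 1 and 2, of patrolling monocytes (pMo), intermediate monocytes (intMo) and conventional monocytes (cMo). The title of the series speaks of bone marrow cultures on OP9-DLL1, stromal feeder cells engineered to display Delta-like 1, which activates Notch receptors. The series description writes the conventional subset where the sample labels have the patrolling one, and the sample labels were followed. How the subsets were sorted was not given in the sources used here. No label ties the libraries to animals or cultures, so the p-values measure only the spread between these libraries, which may be technical.

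Ectoenzymes cut peptides, nucleotides and cofactors in the fluid around a cell and so set which of these signals reach receptors. Ace converts angiotensin I to angiotensin II and inactivates bradykinin, and it is known as a marker of patrolling monocytes. Dpp4 and Anpep remove residues from the amino end of peptides, chemokines included. Entpd1 and Enpp1 break down extracellular ATP, Nt5e makes adenosine from AMP, Cd38 consumes NAD, and Vnn3 belongs to the enzymes that split pantetheine.

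In GRCm38, the assembly also called mm10, with GENCODE M21 genes, Ace (ENSMUSG00000020681.13) lies on chromosome 11 at 105967945 to 105989964 on the plus strand. Dpp4 (ENSMUSG00000035000.8) lies on chromosome 2 at 62330073 to 62412231 on the minus strand. Anpep (ENSMUSG00000039062.14) lies on chromosome 7 at 79821803 to 79861059 on the minus strand. Entpd1 (ENSMUSG00000048120.15) lies on chromosome 19 at 40612366 to 40741602 on the plus strand. Nt5e (ENSMUSG00000032420.7) lies on chromosome 9 at 88327197 to 88372092 on the plus strand. Cd38 (ENSMUSG00000029084.5) lies on chromosome 5 at 43868553 to 43912375 on the plus strand. Vnn3 (ENSMUSG00000020010.7) lies on chromosome 10 at 23851462 to 23869843 on the plus strand. Enpp1 (ENSMUSG00000037370.12) lies on chromosome 10 at 24637914 to 24712159 on the minus strand. All 8 genes had an entry in the RefSeq promoter table (GRCm38.p6), with 10 starts in all, since Ace and Entpd1 have a pair each. The 250 bases before a start are printed for Ace because it changed most, with its second start beside the first, and for Dpp4 and Cd38 because they hold a match to a motif of the Notch-linked factor Rbpj. Capitals mark matches on either strand to GAGGAAG, the core bound by the myeloid factor PU.1, or to GTGGGAA, the Rbpj motif. The windows are chr11:105967698-105967947 (plus strand) for the first Ace start, chr11:105974939-105975188 (plus) for the second, chr2:62412232-62412481 (minus) for Dpp4 and chr5:43868559-43868808 (plus) for Cd38.
Ace, first start: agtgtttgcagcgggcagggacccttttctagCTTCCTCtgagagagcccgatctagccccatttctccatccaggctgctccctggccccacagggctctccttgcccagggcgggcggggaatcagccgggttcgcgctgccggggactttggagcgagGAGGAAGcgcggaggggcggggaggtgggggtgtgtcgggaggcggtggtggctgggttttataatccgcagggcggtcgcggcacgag
Ace, second start: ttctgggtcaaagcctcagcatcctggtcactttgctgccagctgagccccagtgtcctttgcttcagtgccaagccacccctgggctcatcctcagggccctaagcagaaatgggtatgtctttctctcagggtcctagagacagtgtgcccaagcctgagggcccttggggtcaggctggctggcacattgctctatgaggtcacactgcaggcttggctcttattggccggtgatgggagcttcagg
Dpp4: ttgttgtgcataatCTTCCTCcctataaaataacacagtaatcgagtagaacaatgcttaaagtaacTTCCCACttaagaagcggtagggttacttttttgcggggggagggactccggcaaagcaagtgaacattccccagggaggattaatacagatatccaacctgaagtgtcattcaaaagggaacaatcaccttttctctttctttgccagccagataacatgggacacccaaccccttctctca
Cd38: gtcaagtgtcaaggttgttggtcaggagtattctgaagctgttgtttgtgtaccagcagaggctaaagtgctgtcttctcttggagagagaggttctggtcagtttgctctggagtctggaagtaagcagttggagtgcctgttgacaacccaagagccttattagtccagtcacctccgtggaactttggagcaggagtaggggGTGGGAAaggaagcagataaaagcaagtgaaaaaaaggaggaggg
The first Ace window held 2 matches to the PU.1 core, at 89 to 83 bases before the start on the plus strand and at 218 to 212 on the minus strand. The second Ace start lies 7241 bases downstream in intron 12 of the longest coding transcript, which has 25 exons, and is known from textbooks as the start of the testis form. Its window held no match. Dpp4 held 1 match to the PU.1 core and 1 to the Rbpj motif, both on the strand opposite to the one printed. In Cd38 the Rbpj match lay 45 to 39 bases before the start. Outside these windows the only match was a PU.1 core at the second start of Entpd1. AAGGTCA, the motif bound by Nr4a factors as monomers, was in none of the 10 windows. Of 32851 promoters in the table, 10.6% held the PU.1 core, 5.42% the Rbpj motif and 4.08% the Nr4a motif in a window of this length. The motifs do not overlap one another in the windows shown, and a match describes the letters only.

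The total estimated counts ran from 18455116 to 29985684 per library. Levels are given as CPM, estimated counts scaled to a common library size with TMM factors, and a gene was called at an edgeR adjusted p under 0.05 over all 14059 genes. The subset labels were checked with 7 conventional and 7 patrolling monocyte markers. Summed conventional markers were 598 to 1093 CPM in pMo, 1100 to 2469 CPM in intMo and 5677 to 10382 CPM in cMo, and summed patrolling markers were 7629 to 9289, 3091 to 4106 and 656 to 812 CPM in the same order. Single patrolling markers did not all follow the sum. All 7 were called higher in pMo than in cMo. In intMo against cMo 5 rose, Spn fell (log2 -1.48, adjusted p = 0.00587) and Cx3cr1 was not called (adjusted p = 0.442). Libraries numbered 0 stood apart from the others of their subset. In intMo library 0 the summed level of 14 stromal markers was 807 CPM, against 247 and 304 CPM in intMo libraries 1 and 2. The same sums were 534, 348 and 280 CPM in pMo libraries 0, 1 and 2 and 26.9, 11.2 and 10.5 CPM in cMo, with no stromal marker at 0 in any subset. Of the 14 stromal markers, 12 were called higher in pMo and 12 in intMo than in cMo, and none was called between pMo and intMo by edgeR, by DESeq2 (0) or at an unadjusted p under 0.05 (0). These are bulk libraries, so fewer cells of a type and less RNA per cell cannot be told apart.

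Ace was the member called in all 3 comparisons. It measured 2143, 1002 and 937 CPM in pMo libraries 0, 1 and 2, then 35.4, 54.2 and 66.3 CPM in intMo, and 0.972, 1.3 and 0.324 CPM in cMo. Every pMo library lay above every intMo library, and every intMo library above every cMo library. In raw terms the cMo libraries held 27, 37 and 9 estimated counts, so the level there rests on few reads. Ace rose 1560-fold in pMo against cMo (log2 10.61 ± 0.65, SE, adjusted p = 1.37e-05), 59.6-fold in intMo against cMo (log2 5.90 ± 0.55, adjusted p = 0.000218) and 26.2-fold in pMo against intMo (log2 4.71 ± 0.49, adjusted p = 0.00136). With libraries 1 and 2 of every subset alone the last difference was 4.01 on the log2 scale (adjusted p = 0.000179). Library 0 had the highest stromal sum in every subset, and it had the highest Ace of the pMo libraries and the lowest Ace of the intMo libraries. An antisense gene, Gm11651, overlaps 295 exonic bases of Ace and had 0 CPM in all 9 libraries.

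**Figure D1:**
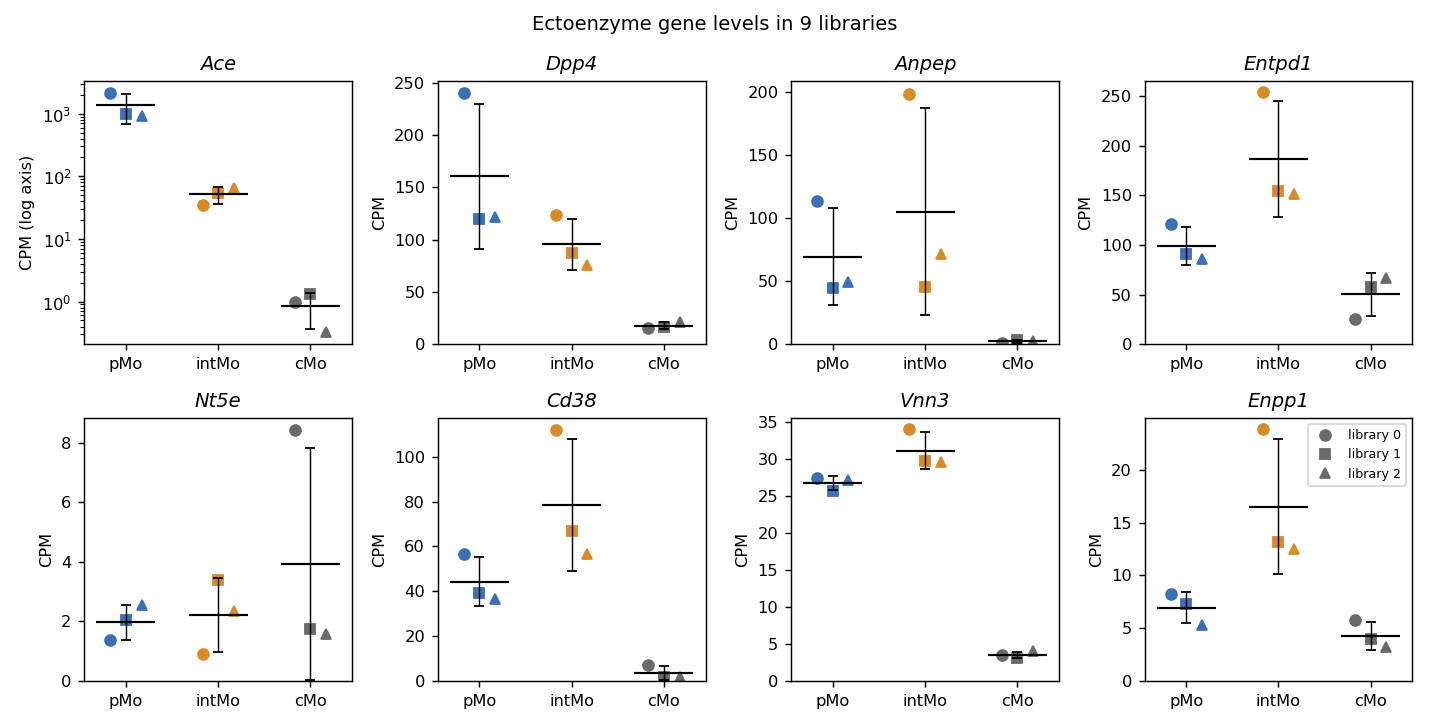
CPM of each ectoenzyme gene in pMo, intMo and cMo, with circles, squares and triangles for libraries 0, 1 and 2, horizontal lines for the mean and bars for the SD of 3 libraries; the Ace panel has a log axis and the others start at 0. Ace steps down from pMo to intMo to cMo, whereas Anpep, Entpd1, Cd38, Vnn3 and Enpp1 have their highest mean in intMo.

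Dpp4, also called CD26, cuts dipeptides from the amino end of peptides whose second residue is proline or alanine. It measured 240, 119 and 122 CPM in pMo libraries 0, 1 and 2, 123, 87.4 and 76.1 CPM in intMo, and 15.2, 16.8 and 21.6 CPM in cMo. The cMo libraries lay below all others, while pMo and intMo overlapped. Dpp4 rose 8.99-fold in pMo against cMo (log2 3.17 ± 0.32, adjusted p = 0.000195) and 5.36-fold in intMo against cMo (log2 2.42 ± 0.31, adjusted p = 0.000999). Between pMo and intMo the log2 difference was 0.75 ± 0.30 and was not called (adjusted p = 0.215). It was 0.34 without pMo library 0, and 0.56 and called (adjusted p = 0.0259) with libraries 1 and 2 alone. Dpp4 in library 0 differed from the mean of libraries 1 and 2 by 1.0 in pMo, 0.59 in intMo and -0.33 in cMo (log2). The median of 14 stromal markers did so by 0.86, 1.48 and 1.21, and that of 7 macrophage markers by 0.71, 0.97 and -1.83. The part of stromal or macrophage RNA in the Dpp4 level was not tested.

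Anpep, the aminopeptidase N or CD13 of myeloid and stromal cells, was high in both pMo and intMo and spread widely. Its level was 114, 44.9 and 49.6 CPM in pMo libraries 0, 1 and 2, 199, 45.3 and 71.3 CPM in intMo, and 0.756, 3.66 and 2.34 CPM in cMo. All pMo and intMo libraries lay above the cMo libraries and overlapped with each other. The gene rose by a log2 of 4.94 ± 0.76 in pMo against cMo (adjusted p = 0.00162) and of 5.54 ± 0.78 in intMo against cMo (adjusted p = 0.00153). Without intMo library 0 the intMo rise was 4.70, with libraries 1 and 2 alone it was 4.28, and the pMo rise was then 3.98. Between pMo and intMo it was not called (log2 -0.60 ± 0.63, adjusted p = 0.708), and without intMo library 0 the direction turned (log2 0.25). Anpep in library 0 differed from the mean of libraries 1 and 2 by 1.27 in pMo, 1.81 in intMo and -1.85 in cMo (log2). The median of the 14 stromal markers did so by 0.86, 1.48 and 1.21, and that of 7 macrophage markers by 0.71, 0.97 and -1.83. The part of stromal or macrophage RNA in the Anpep level was not tested.

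Of the 3 enzymes of extracellular nucleotides, Entpd1 and Enpp1 had their highest mean in intMo, and Nt5e was low throughout. Entpd1, or CD39, which strips ATP and ADP to AMP, measured 121, 90.9 and 85.8 CPM in pMo libraries 0, 1 and 2, 254, 155 and 152 CPM in intMo, and 25.6, 58.1 and 66.9 CPM in cMo. No library of one subset overlapped with those of another. Entpd1 rose in intMo against cMo (log2 1.89 ± 0.36, adjusted p = 0.006), and this was 1.30 with libraries 1 and 2 alone. In pMo against cMo it just missed the threshold (log2 0.98 ± 0.35, adjusted p = 0.057). It was called there without cMo library 2 (adjusted p = 0.0457) or intMo library 0 (0.0378), by DESeq2 (0.0217) and limma-voom (0.0423), and with libraries 1 and 2 alone (0.00789, log2 0.51). For pMo against intMo the difference of -0.91 ± 0.35 was not called (adjusted p = 0.196), but it was without cMo library 0 (0.0482) and with libraries 1 and 2 alone (0.00197).

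Enpp1, which turns ATP into AMP and pyrophosphate and also degrades cGAMP, was present at lower levels. It measured 8.22, 7.28 and 5.33 CPM in pMo libraries 0, 1 and 2, 23.9, 13.2 and 12.5 CPM in intMo, and 5.76, 3.94 and 3.17 CPM in cMo. The intMo libraries stood above all others, and pMo and cMo overlapped. Enpp1 rose 3.84-fold in intMo against cMo (log2 1.94 ± 0.33, adjusted p = 0.00367) and was not called in pMo against cMo (log2 0.70 ± 0.33, adjusted p = 0.134). With the library number as a block it was called there (log2 0.72, adjusted p = 0.0192), as with libraries 1 and 2 alone (0.84, 0.0155). In pMo against intMo it missed the threshold (log2 -1.24 ± 0.33, adjusted p = 0.0645). With the library number as a block, fitted over all libraries with cMo included, it was called lower (log2 -1.20, adjusted p = 0.0116). No label gives a reason for such a block. DESeq2 (0.00571), the fit without cMo library 0 (0.0374) and that with libraries 1 and 2 alone (0.0102) called it lower as well. Library 0 lay above the mean of the other pair by 0.39 in pMo, 0.89 in intMo and 0.69 in cMo (log2), in the direction of the stromal markers; their part was not tested.

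Nt5e, or CD73, which makes adenosine from AMP, was the only member called in none of the 3 comparisons. It measured 1.36, 2.03 and 2.54 CPM in pMo libraries 0, 1 and 2, 0.911, 3.4 and 2.35 CPM in intMo, and 8.42, 1.76 and 1.58 CPM in cMo. The subsets overlapped, and only cMo library 0 exceeded 3.4 CPM. The log2 differences were -0.99 ± 0.69 for pMo against cMo (adjusted p = 0.305), -0.81 ± 0.69 for intMo against cMo (0.427) and -0.18 ± 0.70 for pMo against intMo (0.936). Without cMo library 0 the first and second turned to 0.24 and 0.42, neither called. In that library summed granulocyte and progenitor markers were 10491 CPM, against 2088 and 2337 CPM in cMo libraries 1 and 2. Whether those cells carried the Nt5e counts was not tested.

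Cd38, which hydrolyses NAD and makes cyclic ADP-ribose, rose in both pMo and intMo. Its level was 56.8, 39.1 and 36.7 CPM in pMo libraries 0, 1 and 2, 112, 66.8 and 56.5 CPM in intMo, and 7.09, 1.79 and 1.87 CPM in cMo. The cMo libraries lay below all others, and pMo library 0 just exceeded intMo library 2. Cd38 rose 12.3-fold in pMo against cMo (log2 3.62 ± 0.55, adjusted p = 0.0015) and 21.8-fold in intMo against cMo (log2 4.45 ± 0.57, adjusted p = 0.00101). Without cMo library 0, the highest of its subset, these values were 4.58 and 5.41, and with libraries 1 and 2 alone they were 4.37 and 5.07. That library was also the highest cMo library for granulocyte and progenitor markers, whose part was not tested. The difference of -0.83 ± 0.49 between pMo and intMo was not called (adjusted p = 0.423), and was called lower with libraries 1 and 2 alone (log2 -0.70, adjusted p = 0.00699).

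Vnn3 had the smallest SD relative to its mean of the 8 members in each subset. It measured 27.4, 25.6 and 27.1 CPM in pMo libraries 0, 1 and 2, 34.0, 29.7 and 29.6 CPM in intMo, and 3.45, 3.09 and 4.0 CPM in cMo. The subsets did not overlap, and the gap between pMo and intMo was small. Vnn3 rose 7.58-fold in pMo against cMo (log2 2.92 ± 0.15, adjusted p = 4.82e-06) and 8.84-fold in intMo against cMo (log2 3.14 ± 0.15, adjusted p = 7.01e-06), and the smaller pMo level was not called against intMo (log2 -0.22 ± 0.14, adjusted p = 0.458). Library 0 differed from the mean of the others by 0.06 in pMo, 0.2 in intMo and -0.02 in cMo (log2). The median of every marker list, macrophage markers included, differed by more in each subset. The part of RNA from other cells in the Vnn3 level was not tested.

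Across the list, 5 of 8 members rose in pMo against cMo, 0 fell and 3 were not called, where 17.2% of all tested genes were called higher and 15.9% lower (33.1% in all). The median log2 difference of the members was 3.05, beside 0.03 over all tested genes. In intMo against cMo, 7 rose and 1 was not called, against a background of 14% called higher and 10.4% lower (24.4% in all). The medians were 2.78 for the members and -0.01 for all genes. In pMo against intMo, 1 rose, 0 fell and 7 were not called, against a background of 3.29% called higher and 1.69% lower (4.99% in all). The medians were -0.41 for the members and -0.02 for all genes. This background of 463 genes called higher and 238 called lower became 383 and 310 with no scaling factor, and 1053 and 1371 with libraries 1 and 2 alone. In pMo against cMo, 2420 genes called higher and 2230 called lower became 2115 and 2741 with no scaling factor. At an unadjusted p under 0.05, 6 members were higher in pMo and 7 in intMo against cMo, and 0 were lower in either. In pMo against intMo 2 were higher and 2 lower. DESeq2 called 1 higher and 1 lower there, and 770 higher and 647 lower of all 14059 genes. The share of all genes at an unadjusted p under 0.05 was not computed. Libraries did not overlap for 6 members, all higher, in pMo against cMo, where that held for 26% of tested genes in the higher and 23.5% in the lower direction. The same held for 7 members, all higher, in intMo against cMo (21.2% of tested genes higher and 20.1% lower), and for 1 higher and 3 lower members in pMo against intMo (14.8% and 12.9%). Each pair of comparisons shares the libraries of a subset. With libraries 1 and 2 of every subset alone, 7, 7 and 5 members were called in the 3 comparisons, in the order given, and so were 37.7%, 27.8% and 17.1% of all genes tested in that fit. Since the members were picked with earlier results of these data known, their counts describe them and are not independent evidence.

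**Figure D2:**
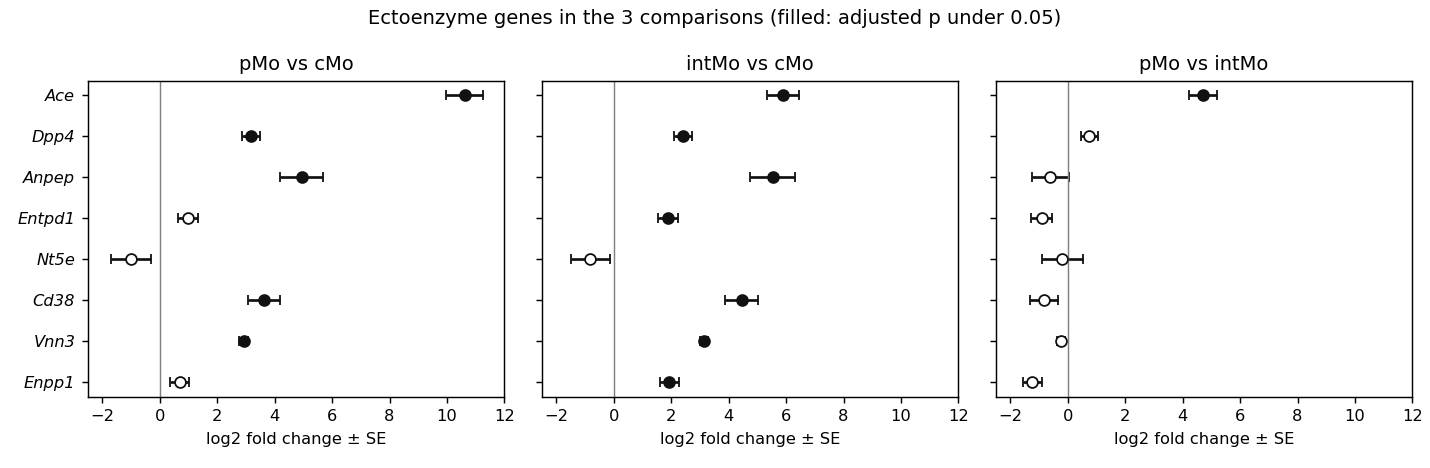
Log2 fold change (x axis) of each ectoenzyme gene with its SE in the 3 comparisons, from edgeR over all 9 libraries; filled points have an adjusted p under 0.05. Ace is the only filled point in pMo against intMo, and Nt5e is open in all 3 panels.

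Per kilobase of the longest coding transcript, which runs from 1811 bases in Vnn3 to 6777 bases in Enpp1, the order of mean levels differed between subsets. In pMo it was Ace (277 CPM per kb), Dpp4 (30.4), Entpd1 (23.5), Anpep (18.3), Vnn3 (14.7), Cd38 (13.5), Enpp1 (1.02) and Nt5e (0.493). In intMo Entpd1 led at 44.2 CPM per kb, followed by Anpep (27.7), Cd38 (24.0), Dpp4 (18.1) and Vnn3 (17.2), with Ace at 10.6. The place of Anpep rests on library 0. With libraries 1 and 2 alone, a setting chosen after seeing the data, Anpep had 12.4 CPM per kb in pMo, below Vnn3 (14.5), and 15.4 in intMo, below Cd38 (18.9), Vnn3 (16.4) and Dpp4 (15.5). In cMo Entpd1 led at 11.9 CPM per kb, and Ace was last at 0.176. Ace was thus first of the 8 in pMo, sixth in intMo and last in cMo on this scale, which takes no account of which transcript was used.

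The plot by library places the members beside the cell type markers. Anpep, Entpd1, Cd38, Vnn3 and Enpp1 were all highest in intMo library 0, which was also the highest library for summed stromal (807 CPM), macrophage (6340 CPM), dendritic cell (139 CPM) and lymphoid (52.7 CPM) markers. Summed macrophage markers, with 1 of 8 below the filter, were 1353 to 2100 CPM in pMo, 3335 to 6340 CPM in intMo and 222 to 798 CPM in cMo. The means of Anpep, Entpd1, Cd38, Vnn3 and Enpp1 had the order intMo, pMo, cMo, and so did those of Mertk, C1qa, C1qb, C1qc and Adgre1 in the macrophage list. Its other genes ran otherwise. Mrc1 averaged 49.2 CPM in pMo, 302.6 CPM in intMo and 118.1 CPM in cMo, and Marco averaged 1.78, 0.606 and 0.0469 CPM in the same order. Vsig4, not tested, averaged 0.138, 0.118 and 0.0357 CPM. The part of macrophage RNA in the members' levels was not tested. Dendritic cell markers summed to 27.7 to 62.8 CPM in pMo, 93.1 to 139 CPM in intMo and 42.6 to 44.0 CPM in cMo. Single genes of that list split. In pMo against cMo 3 were called higher, 3 lower and 2 not, beside 17.2% of all tested genes higher and 15.9% lower. Flt3 averaged 2.54 CPM in pMo, 23.8 CPM in intMo and 34.8 CPM in cMo, and Siglech 0.649, 35 and 4.16 CPM. Lymphoid markers summed to 9.84 to 16.8 CPM in pMo, 25 to 52.7 CPM in intMo and 2.63 to 3.24 CPM in cMo, with 1, 1 and 4 of 12 at 0 in those subsets. Granulocyte and progenitor markers summed to 421 to 1962 CPM in pMo, 359 to 3416 CPM in intMo and 2088 to 10491 CPM in cMo.

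**Figure D3:**
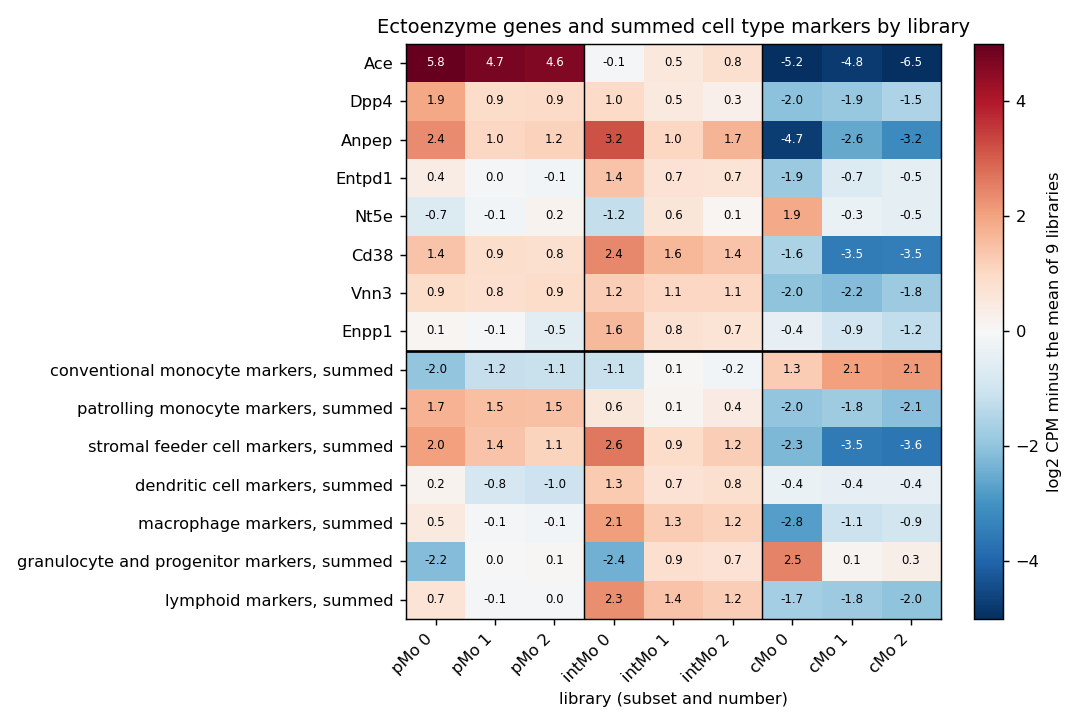
Log2 CPM minus the mean of the 9 libraries (colour and printed value; colour stops at 5 in either direction) for each ectoenzyme gene and for the summed markers of 7 cell types, by library. Ace is highest in the 3 pMo libraries and lowest in the 3 cMo libraries, while Anpep and the stromal and macrophage markers are all highest in intMo library 0.

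A close relative lies next to Cd38, Vnn3 and Enpp1. Bst1 (CD157), an NAD enzyme related to Cd38 and 24566 bases from it on chromosome 5, ran the other way, at 12.2, 9.42 and 6.6 CPM in pMo, 16.2, 17.7 and 15.4 CPM in intMo, and 40.2, 29.8 and 41.9 CPM in cMo. It fell by 1.99 ± 0.23 in pMo against cMo (log2, adjusted p = 0.000391) and by 1.18 ± 0.23 in intMo against cMo (adjusted p = 0.00625), the opposite direction to Cd38. Vnn1, a pantetheinase 24844 bases from Vnn3 on chromosome 10, was at 0 in 8 of 9 libraries and at 0.255 CPM in intMo library 1. Enpp3, 60246 bases from Enpp1, reached 0.35 to 0.525 CPM in pMo, 0.297 to 0.59 CPM in intMo and 0 to 0.072 CPM in cMo. Its pMo to cMo ratio was 18.9 from 34 and 2 counts (95% exact counting interval 4.84 to 162.2), and it was called higher (adjusted p = 0.00708).

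The counts of the related lists stand beside those of all tested genes. In pMo against cMo, 17.2% of all tested genes were called higher and 15.9% lower. The shares were 14% and 10.4% in intMo against cMo, and 3.29% and 1.69% in pMo against intMo. No set test was run. Of 15 angiotensin and kinin genes, 4 were tested. Tmsb4x, whose product yields a peptide that Ace degrades, rose in pMo (4236 ± 215 CPM, against 2669 ± 668 CPM in cMo, SD, n = 3 each; adjusted p = 0.0186), and Prep, a peptidase of that path, fell (54.3 ± 2.5 against 73.2 ± 13.4 CPM, adjusted p = 0.0461). The remaining pair was not called, and Agt, Ren1 and the angiotensin receptors Agtr1a, Agtr1b and Agtr2 had means of at most 0.306 CPM in every subset. Prep also fell in intMo against cMo, and 0 of the 4 were called in pMo against intMo by edgeR, by DESeq2 or at an unadjusted p under 0.05. The median log2 differences of the 4 were 0.01, 0.13 and 0.06 in pMo against cMo, intMo against cMo and pMo against intMo.

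Among 16 tested surface peptidases other than the members, 11 rose and 1 fell in pMo against cMo, with a median log2 of 1.08. Mmp14, a membrane-bound matrix protease, measured 269, 212 and 208 CPM in pMo, 186, 66.5 and 78.0 CPM in intMo, and 2.41, 4.57 and 2.23 CPM in cMo, so that all pMo and intMo libraries lay above cMo. It rose by a log2 of 6.22 ± 0.50 in pMo against cMo (adjusted p = 6.92e-05). Mmp14 was highest in library 0 of pMo and of intMo, as the stromal sum was, but not in library 0 of cMo. The part of stromal RNA in its level was not tested. Dpep1, a membrane dipeptidase, had 72 counts in pMo and 3 in cMo, a ratio of 26.7 (95% interval 8.77 to 132.3, adjusted p = 0.00872). The gene that fell was Ggt1, which cleaves glutathione, named after the values were seen. It had 2 counts in pMo and 59 in cMo, a ratio of 0.0377 (95% interval 0.00446 to 0.142, adjusted p = 0.00737). In intMo against cMo 8 rose and 2 fell (median 0.62), and in pMo against intMo 1 rose and 1 fell (median 0.20). Those were Cpd, a carboxypeptidase (log2 1.39, adjusted p = 0.00864), and Ggt5, a gamma-glutamyl enzyme (log2 -0.98, adjusted p = 0.0332), both named after the values were seen.

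Other ectonucleotidases were scarce. Of 9, 6 were tested, and 4 rose in pMo against cMo (median 2.63), 3 rose in intMo against cMo (2.60) and 1, Enpp4 (log2 -1.25, adjusted p = 0.013, named after the values were seen), fell in pMo against intMo, with a list median of -0.53. Enpp2 (autotaxin), which makes lysophosphatidic acid, measured 0.411, 2.31 and 2.58 CPM in pMo libraries 0, 1 and 2. In cMo it was at 0.072, 0.0703 and 0.072 CPM (adjusted p = 0.00351 for pMo against cMo). The cMo values rest on few reads, so their small spread does not measure precision. Alpl, a phosphatase of bone and stroma, had 50 counts in pMo and 3 in cMo (ratio 18.5, 95% interval 5.98 to 92.8, adjusted p = 0.00869).

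Receptors, transporters and enzymes of purines were called in both directions. In pMo against cMo 7 of 19 tested rose and 4 fell (median 0.24), in intMo against cMo 7 rose and 3 fell (0.73), and in pMo against intMo 2 rose and 4 fell (-0.64). Adora2a, an adenosine receptor coupled to cAMP, measured 23.2, 36.5 and 32.7 CPM in pMo libraries 0, 1 and 2, 2.41, 1.53 and 1.86 CPM in intMo, and 0.576, 1.9 and 1.84 CPM in cMo. It rose in pMo, by a log2 of 4.42 ± 0.43 against cMo (adjusted p = 0.000141) and 4.0 ± 0.42 against intMo (adjusted p = 0.00125), and was not called in intMo against cMo (log2 0.42 ± 0.41, adjusted p = 0.488). P2ry10, a receptor of lysophospholipids, rose in both pMo and intMo (log2 5.01 ± 0.74 in pMo and 5.03 ± 0.74 in intMo against cMo), with 39.7 and 35.6 CPM in their libraries 0 and 10.2 to 14.7 CPM in the others. Adora2b, another adenosine receptor, rose (log2 2.02, adjusted p = 0.00101) and Adk, the kinase that removes adenosine inside cells, fell (log2 -1.39, adjusted p = 0.00399) in pMo against intMo, both named after the values were seen.

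For NAD, 5 of 13 tested enzymes and sensors rose and 2 fell in pMo against cMo (median 0.36, which was the same with Art2b at its bound), 5 rose and 2 fell in intMo against cMo (0.33 with or without the bound), and 0 were called in pMo against intMo by edgeR (-0.10), where 3 passed an unadjusted p under 0.05 and DESeq2 called 3. Art2b, an ADP-ribosyltransferase known from T cells, had 26 counts in pMo, 50 in intMo and 0 in cMo, at least 9.63-fold and 19.4-fold higher with a floor of 3 counts over the subset. Nmnat2, which makes NAD, had 68 counts in pMo and 3 in cMo (ratio 25.2, 95% interval 8.26 to 125.1). Of 9 tested pantetheine and coenzyme A genes, 3 fell in pMo against cMo (median -0.17), 2 fell in intMo against cMo (-0.14), and 0 were called in pMo against intMo (-0.11), where 1 passed an unadjusted p under 0.05 and DESeq2 called 0. None rose against cMo by edgeR, by DESeq2 (0) or at an unadjusted p under 0.05 (0). They included Pank1, a pantothenate kinase (4.36 ± 0.478 CPM in pMo and 9.18 ± 0.841 CPM in cMo, adjusted p = 0.0029), and Btd, the biotinidase of the Vnn family (14.5 ± 1.98 and 23.2 ± 1.06 CPM, adjusted p = 0.0202).

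**Figure D4:**
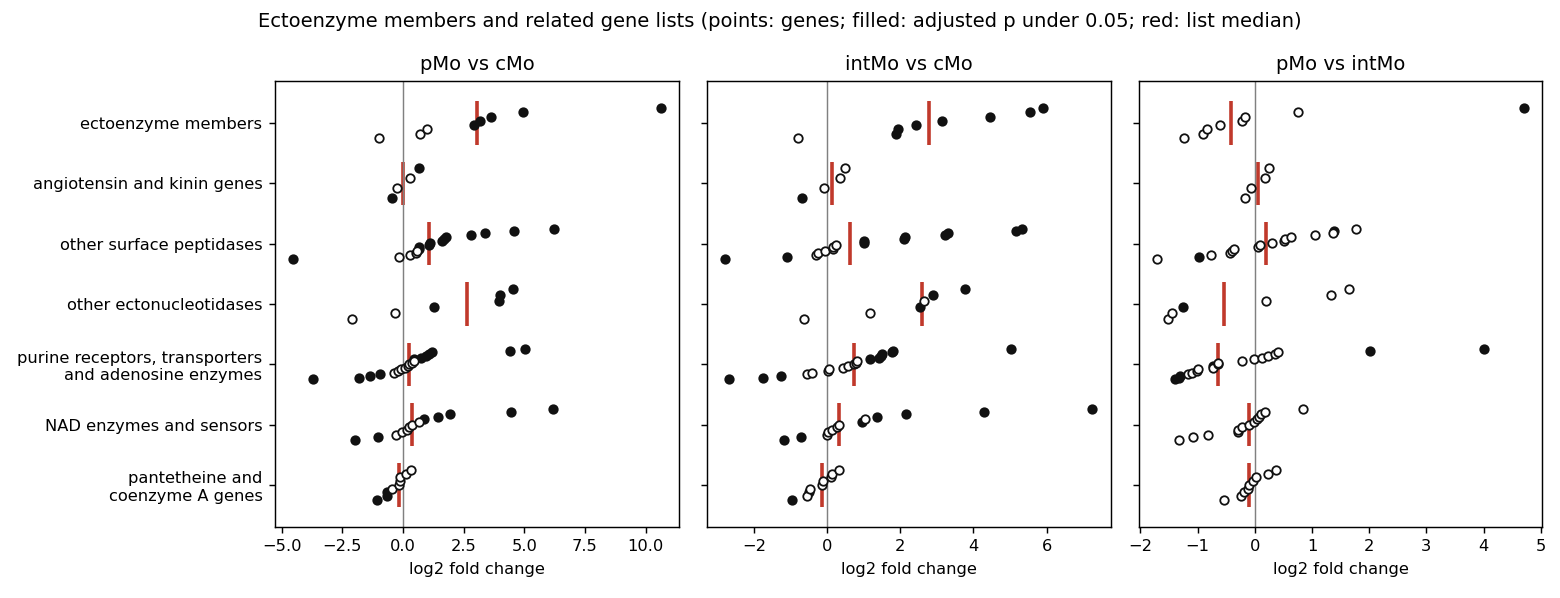
Log2 fold change of every tested gene of the ectoenzyme list and of the 6 related lists in the 3 comparisons, with filled points at an adjusted p under 0.05 and red lines at list medians. The member median lies at 3.05, 2.78 and -0.41 in the 3 panels, and the rightmost NAD point in each panel against cMo is Art2b, whose fitted value rests on 0 counts in cMo.

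The genes nearest to a member in pattern were found by the root mean square difference of log2 CPM, centred per gene, over the 9 libraries. For Ace they were Gjb2, a gap junction protein (1.13), Ccl22, a chemokine (1.38), Bcl2a1a, a survival factor with near-identical copies that share reads (1.43), Nr4a3, a nuclear receptor (1.48), and H2-Eb2, an MHC class II chain (1.59). Gjb2 measured 20, 26.3 and 27.1 CPM in pMo libraries 0, 1 and 2, 0.965, 2.42 and 2.19 CPM in intMo and 0 CPM in all cMo libraries. Ccl22, Nr4a3 and H2-Eb2 were at 0.144 CPM or less in every cMo library. For these and Gjb2 the log2 values in cMo, and so the distances, lean on the small count added before taking logs. The nearest member, Anpep, lay 2.70 from it.

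Other members had closer neighbours. Those of Dpp4 were Nfkbie, an NF-kB inhibitor (0.29), and Ccl3, a chemokine (0.33). Anpep was nearest to Pdgfb, a growth factor (0.36), and Lag3, an inhibitory receptor (0.42), and both were highest in library 0 of pMo and intMo, as Anpep was. Entpd1 was nearest to Tmem176b, a membrane protein (0.13), and Adgre1, the F4/80 receptor of macrophages (0.18). Cd38 was nearest to Htr7, a serotonin receptor (0.38), and Sema7a, a semaphorin (0.45). Vnn3 was nearest to Mme, the surface peptidase neprilysin (0.22), and Lair1, a collagen receptor (0.28). Enpp1 was nearest to Ier3, an early response gene (0.21), and Il12rb1, a cytokine receptor chain (0.27), and Nt5e to Cd24a (0.28) and Prom1 (0.29), surface proteins of immature cells. Among the members themselves the closest pair was Dpp4 and Vnn3 (0.49).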

How the data were processed

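RNAzol extraction was followed by library preparation with NEBNext Ultra II Stranded mRNA reagents, per the labels' protocols. The authors deposited 1 table of estimated counts per gene. The submitters' processing notes name kallisto 0.46.1 and mm10. Which annotation, filter and strand setting they used was not given in the sources used here. Counts were rounded. Of 46517 IDs, 46005 matched a GENCODE M21 symbol (GRCm38). All 9 libraries were fitted together in edgeR 4.0.16 (filterByExpr, TMM, robust quasi-likelihood F test, R 4.3.3), with Benjamini-Hochberg adjustment over 14059 genes and calls under 0.05. CPM are given after TMM scaling of the deposited counts. Intervals and floors of 3 counts cover counting error only, since reads without molecular identifiers are not independent. The members and lists were chosen with earlier results of these data known. From each related list the text names the 2 called genes with the largest pMo to cMo change and no overlap. The nearest genes (5 for Ace, 2 for every other member) were sought among named protein-coding genes averaging 5 CPM or more, from log2 CPM with a prior count of 2. Alternatives were 3 scalings, 2 filters, DESeq2 1.42.0, limma-voom (limma 3.58.1), a fit of 2 subsets, the library number as a block, libraries 1 and 2 alone, and leaving out each library.

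Deviations of same-numbered pMo and intMo libraries from their subset means had correlations of 0.59, 0.3 and 0.27 for numbers 0, 1 and 2. For pMo with cMo these were 0.18, -0.02 and 0.23, and for intMo with cMo 0.07, -0.14 and -0.07. The correlations of a comparison are not independent, since each deviation is taken from the mean of the same libraries. Whether libraries were paired was not tested, and the labels give no reason for a pairing. Libraries of a subset differed beyond sampling noise. Chi-square per degree of freedom was 6.66 (pMo), 28.19 (intMo) and 50.74 (cMo) between libraries 1 and 2, and 76.3 to 157.81 in pairs with library 0. The fit with libraries 1 and 2 alone leaves 2 libraries per subset and omits the most unlike one. Its adjusted p-values therefore rest on a narrower spread than those of the main fit. The fit was tested on simulated data with 200 changed genes for each comparison. It called 24% to 28% of the genes changed by a log2 of 1 and 70% to 77% of those changed by 2. Of 98 to 108 calls, 3 to 4 were false. A difference near a log2 of 1 that was not called may therefore have been missed. Protein sequences were not used here.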

Additional observations from a re-analysis of the deposited data

How the results depend on the processing

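Of 456 repeats of a member's comparison, 434 kept direction and side of the threshold, 15 were called only in the repeat and 7 turned direction, and no called member lost its call. Ace was called in all 3 comparisons under each of the 10 other settings and on leaving out each of the 9 libraries. The number of members called in intMo against cMo was 7 in every repeat, where 14.7% to 30.5% of all tested genes were called, and in pMo against cMo it was 5 to 7, with 20.6% to 37.7% of all genes. In pMo against intMo it was 1, but 2 by DESeq2, 2 with the replicate block and 5 with libraries 1 and 2 alone, and 1 to 3 on leaving out single libraries, with 3 without cMo library 0; the cause was not tested. With libraries 1 and 2 alone, 17.1% of all tested genes were called in pMo against intMo, against 4.99% with all libraries, and by DESeq2 10.1%; leaving out single libraries gave 1.54% (without pMo library 1) to 7.73% (without cMo library 0). In intMo against cMo a fit of these subsets alone called 1431 higher and 782 lower genes, against 1966 and 1467. The replicate block changed the calls of Enpp1 in pMo against cMo (log2 0.72) and in pMo against intMo (log2 -1.20) and no other call of a member. Directions that turned were all of uncalled values. With libraries 1 and 2 alone Nt5e was at 0.45 in pMo against cMo and 0.78 in intMo against cMo. On leaving out single libraries Nt5e ran from -1.37 to 0.24, -1.24 to 0.42 and -0.54 to 0.25 in pMo against cMo, intMo against cMo and pMo against intMo, and Anpep from -1.14 to 0.25 in pMo against intMo. Low counts limit Ace in cMo (9 to 37 counts) and Nt5e throughout.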
